A study of Homo sapiens with 24 samples.

Results

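The mRNAs of core spliceosome proteins were followed in U2OS cells, a human osteosarcoma line, during a chase with a transcription inhibitor. The members are the rows of the expression table whose symbol starts with SNRP, SF3A, SF3B or PRPF, together with U2AF1 and U2AF2. They are 34 of 12547 endogenous genes: 11 SNRP genes, 9 SF3A and SF3B genes, 12 PRPF genes and 2 U2AF genes. All 34 passed the filter on low values, and their lowest value in any library was 12.2.

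Sequencing of polyA RNA gave 24 libraries, which are 2 for every combination of 4 genotypes with chase times of 0, 4 and 8 h. The question was how QKI, an RNA-binding protein that recognises an ACTAAC or ACTAAT sequence, affects mRNA stability. The chase combined 5 µg/mL actinomycin D, which blocks transcription, with 200 µM sodium arsenite, an oxidative stressor, in every genotype, so loss under the inhibitor and effects of arsenite cannot be told apart. The genotypes were sgQKI+QKI7-WT and sgQKI+QKI7-△KH, which are QKI-targeted cells given the QKI7 isoform either as wild type or in a form that the label marks △KH, the KH domain being the RNA-binding domain of QKI, then sgQKI+EV and sgNS+EV, whose suffix EV and prefix sgNS the labels do not spell out. No label says whether a genotype is 1 clone or a pool, and none says that the libraries of a group came from separate cultures, so p-values measure the spread between these libraries, which may be technical.

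Spliceosomes remove introns from pre-mRNA and are built from small nuclear ribonucleoproteins, the U snRNPs. Sm proteins form a ring around the RNA of most U snRNPs, while the SF3A and SF3B complexes of the U2 snRNP bind the branch point region, and the U2AF dimer reads the sequence at the end of the intron. PRPF proteins act throughout the cycle, from U1 recruitment to the tri-snRNP and the catalytic core. These are housekeeping proteins that nearly every human cell makes.

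The table holds a linear signal, which its values show to be normalised to spike-in RNAs, since the 38 ERCC spike-in rows sum to between 11485 and 11940 in every library. Endogenous rows sum to between 1036000 and 1368000 at 0 h, 883700 and 1138000 at 4 h, and 690400 and 872600 at 8 h. In sgQKI+QKI7-WT the sums were 1138000 and 1090000 at 4 h, against 1137000 and 1183000 at 0 h. In each other genotype both 4 h sums were below both 0 h sums. Read depth is unknown, so precision comes from the replicate libraries, whose log2 values correlated across genes with Pearson r between 0.9889 and 0.9982. The lowest r belongs to the 2 sgQKI+QKI7-WT libraries at 4 h. QKI, the targeted gene, had a signal at 0 h of 60.4 and 46.3 in sgQKI+QKI7-WT, 47.6 and 50.2 in sgQKI+QKI7-△KH, 36.0 and 32.7 in sgQKI+EV, and 60.0 and 48.2 in sgNS+EV. It was lower in sgQKI+EV than in sgNS+EV by a log2 difference of -0.63 (limma, adjusted p = 0.0264), and the rows of the added QKI7 and the cell's own QKI cannot be separated here. Of 8 mesenchymal or osteosarcoma markers 7 had a row, with signals between 3.82 and 4360, while 2 of 5 epithelial markers had one, at 1.89 to 10.6, and blood and hepatocyte markers had none. In bulk RNA, fewer cells and less RNA per cell cannot be told apart.

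The sequence that QKI recognises was searched in the members' mRNAs, since it bears on the question of the series. Of the 33 members whose GENCODE 29 transcript has a 3′ UTR, 8 held ACTAAC or ACTAAT there, read on the strand of the mRNA alone, which is 24.2%, against 34.7% of 11243 genes with a 3′ UTR. The sites below, on GRCh38 and 5′ to 3′ in mRNA sense with the motif in capitals, belong to members at both ends of the range of loss described next.
SNRPF, chr12:95866205-95866234, plus strand: attactcactgaACTAATgctttaaaagcc
SNRPE, chr1:203870300-203870329, plus strand: aagagttattgcACTAACaaaagtcttcat
PRPF38B, chr1:108700842-108700871, plus strand: gcagaaccctatACTAACatgtaatgggga
PRPF4B, chr6:4061467-4061496, plus strand: tagttttcatttACTAATtacaaatgttga
SF3B3, chr16:70576506-70576535, plus strand: ggcttagaagttACTAATttggagccgtga
PRPF38A, SF3B4 and SNRPD1 are the other members with a match. A match describes the letters in the UTR and says nothing of binding.

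Core spliceosome protein mRNAs fell during the chase, but most of them fell less than the median gene. Over 8 h, averaged over the 4 genotypes, 33 of the 34 were lower than at 0 h and none was higher (limma, adjusted p under 0.05), where 95.7% of all genes were lower and 0.614% higher. Their median log2 change was -0.53, against -0.76 for all genes, and 25 of 34 lay above the gene median. A median of 68.8% of their 0 h signal was left at 8 h, against 56.0% for all genes. These directions hold on the spike-in scale. Scaled to library totals, which moves the median of all genes to -0.25, 13 members were higher and 11 lower, with 25 again above the gene median. After quantile normalisation 19 were higher and 7 lower, with 20 above it. Shares of all genes that passed in such alternative scalings and fits are not given, here or below. Those counts therefore show how member calls move and do not set the members apart from other genes.

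The subgroups differed in how much they kept on the spike-in scale. Whether SF3 and PRPF keep this order in the other scalings is not given. SNRP mRNAs had a median of 74.2% left at 8 h and a median log2 change of -0.43, with 10 of 11 above the gene median. SF3A and SF3B mRNAs had 68.5% left and -0.54, with 7 of 9 above it, and PRPF mRNAs 60.5% left and -0.71, with 6 of 12 above it. The U2AF mRNAs, both above the gene median, had 79.5% left. In each single genotype the same numbers of members, 10, 7, 6 and 2, lay above that genotype's gene median.

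**Figure D1:**
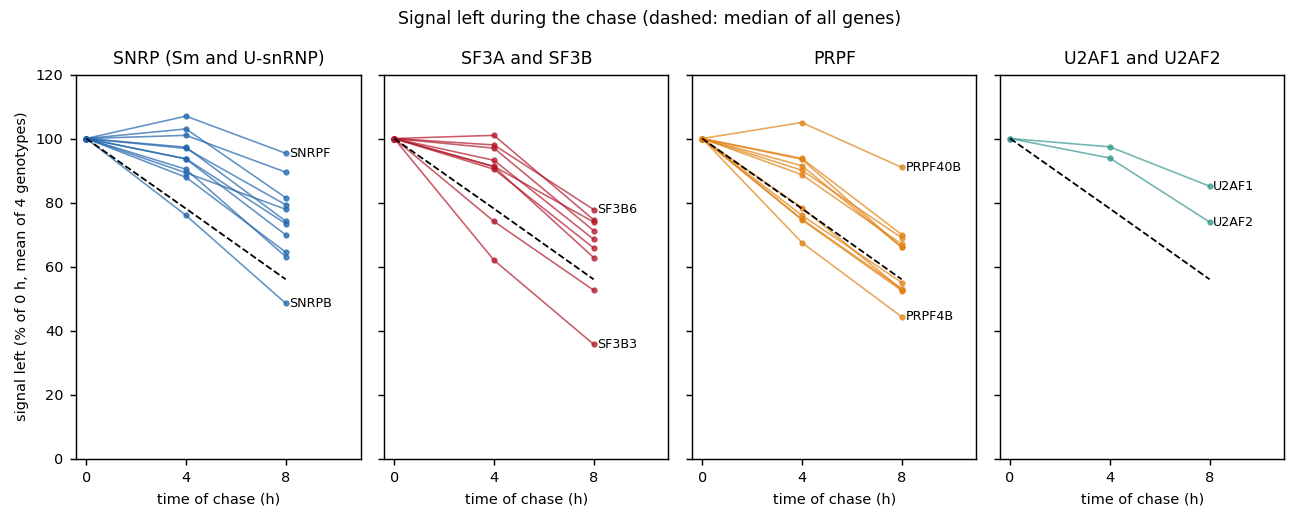
Signal left at 4 h and 8 h as a percentage of the 0 h group mean, averaged over 4 genotypes (y axis), against time of chase in h (x axis), with 1 line for each of 33 members in 4 panels and the median of all genes dashed. SNRPF keeps 95.4% and SF3B3 35.7% at 8 h on the spike-in scale, and 25 of 33 lines end above the dashed one.

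Among the SNRP genes, SNRPF and SNRPD2, which encode Sm ring proteins, kept most of their signal. SNRPF had 171 and 154 at 8 h against 152 and 173 at 0 h in sgQKI+QKI7-WT, 172 and 171 against 193 and 187 in sgQKI+QKI7-△KH, 156 and 145 against 163 and 159 in sgQKI+EV, and 155 and 162 against 164 and 159 in sgNS+EV. The 8 h and 0 h libraries overlapped in sgQKI+QKI7-WT and sgNS+EV and were apart in the other genotypes, with 8 h lower. Its mean log2 change over 8 h was -0.069 (SE 0.0372, adjusted p = 0.0818), the only member that did not pass, and it was 0.50 when scaled to library totals and 0.48 after quantile normalisation. Without the 0 h or the 8 h replicate 1 of sgQKI+QKI7-WT it passed, at -0.092 and -0.088, with adjusted p = 0.0224 and 0.0334. SNRPD2 spanned 612.5 to 779 at 8 h with a median of 716, against 717 to 893 with a median of 774 at 0 h, so that the 2 times overlapped. It changed by -0.16 (SE 0.0403, adjusted p = 0.000767) and by 0.41 and 0.23 with the other 2 scalings.

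SNRPB, the gene of the Sm B and B′ proteins, stood at the other end. Its signal was 137 and 130.3 at 8 h against 241 and 311 at 0 h in sgQKI+QKI7-WT, 146 and 153 against 326 and 288 in sgQKI+QKI7-△KH, 121 and 109.5 against 263 and 266 in sgQKI+EV, and 130.2 and 139 against 242 and 263 in sgNS+EV. Every 8 h library was below every 0 h library. SNRPB fell by 1.04 on the log2 scale (SE 0.0742, adjusted p = 8.3e-12), leaving 48.5%, and it was the only SNRP member below the gene median. At 4 h SNRPB had 80.7% left in sgQKI+QKI7-WT, 84.2% in sgQKI+QKI7-△KH, 83.1% in sgQKI+EV and 55.9% in sgNS+EV, where it changed little more by 8 h, at 53.2%. The 2 sgQKI+QKI7-WT libraries at 4 h lay apart, at 170.5 and 275.

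The other SNRP mRNAs lay between these. SNRPC and SNRPA, which encode U1-specific proteins, changed by -0.30 and -0.33 (SE 0.0402 and 0.0446), and SNRPE, SNRPG and SNRPD3 of the Sm ring by -0.36, -0.43 and -0.44. SNRPB2 and SNRPA1, which encode U2-specific proteins, changed by -0.51 and -0.66, and the Sm gene SNRPD1 by -0.63. SNRPA1 spanned 86.4 to 106.6 at 8 h, median 97.8, against 134.6 to 173 at 0 h, median 150.1, with no overlap. All of these passed on the spike-in scale, with adjusted p of 4e-07 or less. With library totals and quantile normalisation the change was 0.27 and 0.24 for SNRPC, 0.23 and 0.20 for SNRPA, 0.20 and 0.36 for SNRPE, 0.14 and 0.15 for SNRPG, and 0.12 and 0.22 for SNRPD3, all of which then passed as higher. SNRPB2 was at 0.052 and 0.14, passing as higher in the second, SNRPD1 at -0.063 and 0.045, and SNRPA1 at -0.095 and -0.069.

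**Figure D2:**
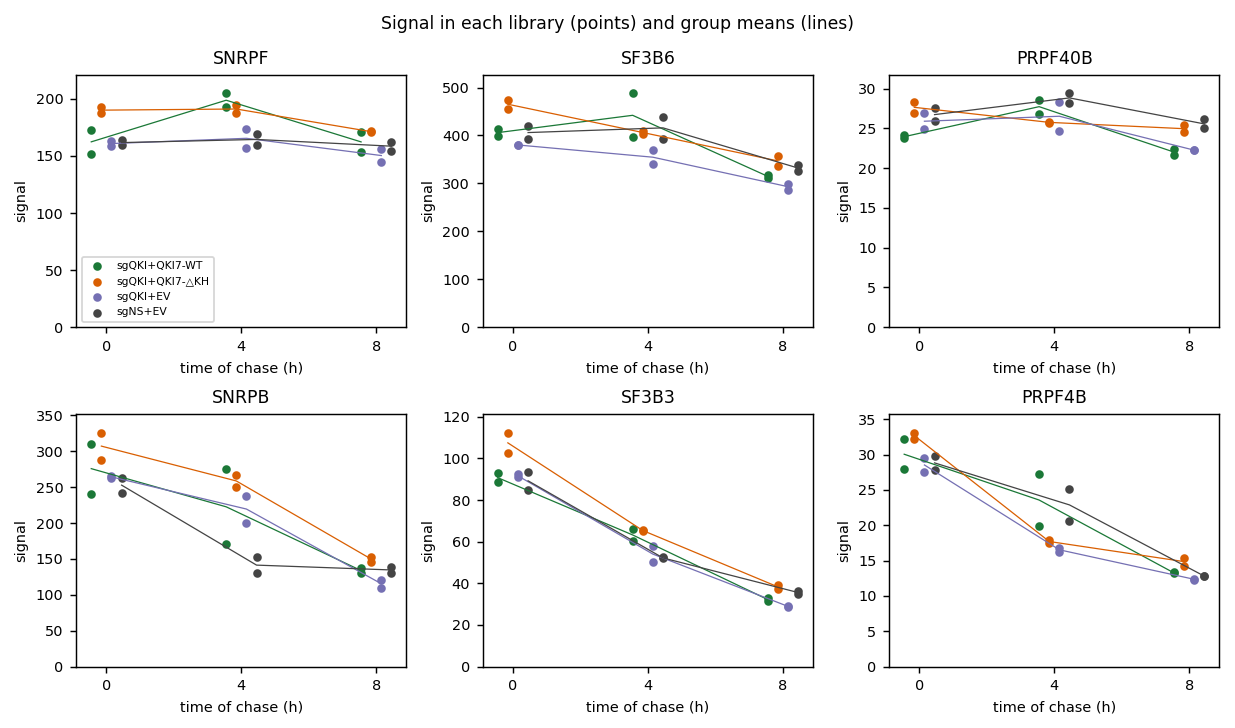
Signal (y axis, from 0) against time of chase in h (x axis) for the SNRP, SF3 and PRPF genes with the smallest and the largest loss, with 1 point per library and lines through the group means of 2 libraries. At 8 h every SNRPB, SF3B3 and PRPF4B library lies below every 0 h library on the spike-in scale, while the SNRPF and PRPF40B times overlap.

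SF3B3, a scaffold subunit of the SF3B complex, lost most among all 34. It had 32.9 and 31.6 at 8 h against 88.7 and 92.7 at 0 h in sgQKI+QKI7-WT, 37.2 and 39.4 against 112.4 and 102.5 in sgQKI+QKI7-△KH, 29.1 and 28.8 against 92.3 and 91.0 in sgQKI+EV, and 34.9 and 36.3 against 84.9 and 93.5 in sgNS+EV. The 2 times were far apart in each genotype. SF3B3 fell by 1.46 on the log2 scale (SE 0.0374, adjusted p = 1.44e-19), and 9.58% of all genes fell further. SF3B1, the subunit most often mutated in myelodysplastic syndromes, spanned 82.5 to 111.3 at 8 h, median 97.4, against 170.0 to 215 at 0 h, median 180.1, again with no overlap. It changed by -0.92 (SE 0.0353, adjusted p = 1.16e-16) and was the only other SF3 member below the gene median, while SF3B4, which contacts RNA near the branch point, was just above it at -0.67.

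SF3B6 and SF3A2 changed least among the SF3 genes. SF3B6, an SF3B subunit also called p14, spanned 287 to 358 at 8 h, median 322, against 379 to 475 at 0 h, median 406. The times did not overlap, and its change was -0.36 (SE 0.0409, adjusted p = 2.18e-08). SF3A2, an SF3A subunit, spanned 57.2 to 79.0 at 8 h, median 66.7, against 79.2 to 100.9 at 0 h, median 89.1, and changed by -0.42 (SE 0.0506, adjusted p = 5.87e-08). The highest SF3A2 library at 8 h and the lowest at 0 h all but touched. Scaled to library totals these 2 changes were 0.21 and 0.14, and after quantile normalisation 0.15 and 0.26. SF3B5, the smallest SF3B subunit, changed by -0.44, and SF3B2, SF3A1 and SF3A3 by -0.49, -0.54 and -0.60. With library totals and quantile normalisation SF3B5 was at 0.13 and 0.080, SF3B2 at 0.077 and 0.032, SF3A1 at 0.022 and 0.13, and SF3A3 at -0.036 and 0.070.

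The PRPF mRNAs spanned changes from -0.13 to -1.12. PRPF40B, a homologue of a yeast U1 snRNP protein, had 22.4 and 21.7 at 8 h against 23.8 and 24.1 at 0 h in sgQKI+QKI7-WT, 24.5 and 25.4 against 28.3 and 27.0 in sgQKI+QKI7-△KH, 22.3 and 22.2 against 26.9 and 24.9 in sgQKI+EV, and 25.0 and 26.1 against 27.6 and 25.9 in sgNS+EV. The times overlapped only in sgNS+EV, and over all genotypes the change was -0.13 (SE 0.0375, adjusted p = 0.00217), with 0.42 and 0.76 under library totals and quantile normalisation. PRPF40B thus kept 91.0% of its signal.

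PRPF4B, a kinase that acts on tri-snRNP proteins, fell most in its subgroup. Its signal was 13.3 and 13.2 at 8 h against 32.2 and 27.9 at 0 h in sgQKI+QKI7-WT, 14.3 and 15.4 against 33.1 and 32.3 in sgQKI+QKI7-△KH, 12.5 and 12.3 against 29.5 and 27.5 in sgQKI+EV, and 12.8 and 12.8 against 29.8 and 27.8 in sgNS+EV. No 8 h library reached a 0 h library, and the change was -1.12 (SE 0.0548, adjusted p = 9.75e-15). PRPF8, the large scaffold of the catalytic core, changed by -0.92, and the U4/U6 protein gene PRPF4 by -0.88. PRPF19, the ubiquitin ligase of the Prp19 complex, spanned 101.9 to 135.1 at 8 h, median 122, against 156 to 198 at 0 h, median 167, and changed by -0.51 (SE 0.0452, adjusted p = 3.41e-10). Its 2 times did not overlap, and with library totals and quantile normalisation the value was 0.053 and 0.042. PRPF38A, PRPF3, PRPF18 and PRPF6 lay between -0.53 and -0.59, and PRPF39 and PRPF38B at -0.84 and -0.90. PRPF38A was above 0 in both other scalings, and PRPF3, PRPF18, PRPF6 and PRPF39 were above 0 after quantile normalisation only.

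Both U2AF mRNAs were among the better kept. U2AF1, which encodes the subunit that reads the AG at the end of the intron, spanned 119 to 152 at 8 h, median 136, against 141 to 183 at 0 h, median 156. U2AF2, the partner that binds the polypyrimidine tract, spanned 115.3 to 143 at 8 h, median 129, against 156 to 205 at 0 h, median 171. The U2AF1 times overlapped and the U2AF2 times did not. Their changes were -0.23 (SE 0.0439, adjusted p = 3.28e-05) and -0.43 (SE 0.0440, adjusted p = 3.78e-09), which became 0.33 and 0.13 with library totals, and 0.33 and 0.12 after quantile normalisation. U2AF1 is uncertain in level, since 884 of its 913 windows of 50 bases, 96.8%, also occur in the annotated copy U2AF1L5, which reads could be split between.

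**Figure D3:**
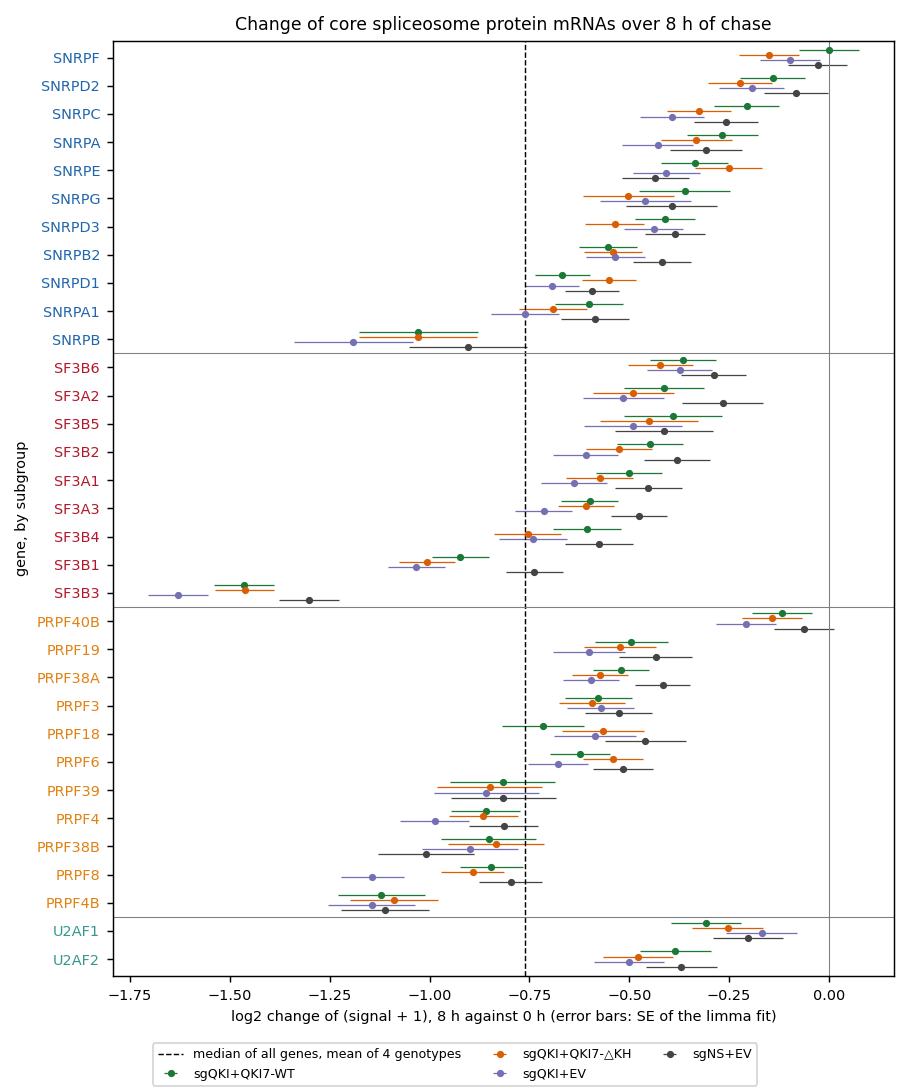
Log2 change of signal plus 1 over 8 h (x axis) for each of 33 genes (y axis, by subgroup) in 4 genotypes, with the SE of the limma fit as bars and the median of all genes dashed, all on the spike-in scale. Genes range from -0.069 for SNRPF to -1.46 for SF3B3 in their mean. Genotypes differ less within a gene, by -0.35 for PRPF8 in sgQKI+EV minus sgNS+EV.

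The number of members that fell was close among the genotypes. Over 8 h 31 members were lower in sgQKI+QKI7-WT, 32 in sgQKI+QKI7-△KH, 32 in sgQKI+EV and 31 in sgNS+EV, where 90%, 90.6%, 90.5% and 88.2% of all genes were lower. SNRPF passed in none of them, PRPF40B passed in sgQKI+EV alone, SNRPD2 in sgQKI+QKI7-△KH and sgQKI+EV, and U2AF1 in all but sgQKI+EV. No member was higher, where 0.438% of all genes were higher in sgQKI+QKI7-WT, 0.486% in sgQKI+QKI7-△KH, 0.422% in sgQKI+EV and 0.383% in sgNS+EV. With library totals 8 members were higher in each genotype, and after quantile normalisation 15 in sgQKI+QKI7-WT, 11 in sgQKI+QKI7-△KH, 17 in sgQKI+EV and 15 in sgNS+EV.

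On the spike-in scale most of the loss in the mean of the 4 genotypes came after 4 h. The members' median at 4 h and 8 h was 0.039 and -0.54 in sgQKI+QKI7-WT and -0.22 and -0.55 in sgQKI+QKI7-△KH. In sgQKI+EV it was -0.15 and -0.60, and in sgNS+EV -0.21 and -0.44. At 4 h, over the 4 genotypes, 23 members were lower than at 0 h and 1 was higher, where 80.2% of all genes were lower and 1.24% higher, and the median change was -0.13 for members and -0.34 for all genes. The member that was higher is SNRPF, at 0.091 (SE 0.0372, adjusted p = 0.0296). SF3B3 (-0.68) and PRPF4B (-0.57) had again the largest falls, followed by SF3B1 (-0.44), PRPF38B and PRPF39 (-0.43 each) and SNRPB (-0.42). Library totals gave 20 higher and 8 lower at 4 h, and quantile normalisation 22 and 5.

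Comparisons between 4 h and 8 h, and the differences of 4 h changes given further on, were chosen after the data had been seen. From 4 h to 8 h all 34 members fell, where 91.1% of all genes fell and 0.558% rose, with a median of -0.42 against -0.41 for all genes; with library totals 17 fell and 5 rose, and after quantile normalisation 8 fell and 6 rose. The members' median was thus close to that of all genes from 4 to 8 h and less far below 0 from 0 to 4 h. The later change was lower than the change from 0 to 4 h in 32 of 34 members, against 64.1% of all genes, and the difference passed with a larger fall in the later interval for 23 members, where 25.4% of all genes did so and 12.6% passed the other way. SF3A2 (-0.42), SF3B4 (-0.39) and SF3B2 (-0.38) had some of the largest such differences, and PRPF39 and PRPF4B, at 0.019 and 0.023, fell about equally in both intervals. Without the 2 sgQKI+QKI7-WT libraries at 4 h the count was 10. It was 16 with library totals and 13, with 1 in the other direction, after quantile normalisation.

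Counts at 4 h spread more between genotypes than counts at 8 h, a difference that was not tested. In sgQKI+QKI7-WT 4 members were lower (PRPF4, PRPF4B, SF3B1 and SF3B3, at -0.28, -0.35, -0.22 and -0.52) and 4 higher (PRPF40B, SF3B2, SNRPC and SNRPF, at 0.20, 0.22, 0.28 and 0.29), where 42.9% of all genes were lower and 2.66% higher. In sgQKI+QKI7-△KH 20 members were lower, in sgQKI+EV 15 and in sgNS+EV 18, with none higher, where 73.6%, 63.8% and 59.8% of all genes were lower and 0.406%, 0.885% and 0.422% higher. With library totals 12 members were higher and 4 lower in sgQKI+QKI7-WT, 11 higher and 6 lower in sgQKI+QKI7-△KH, 8 higher and 7 lower in sgQKI+EV, and 14 higher and 3 lower in sgNS+EV. Quantile normalisation gave 11 higher and 2 lower in sgQKI+QKI7-WT, 11 and 4 in sgQKI+QKI7-△KH, 13 and 4 in sgQKI+EV, and 15 and 3 in sgNS+EV. Leaving out 1 library moved these counts. The sgQKI+QKI7-WT count became 7 lower and 2 higher without replicate 1 at 4 h, 2 lower and 7 higher without replicate 2 at 4 h, and 2 lower and 3 higher without replicate 2 at 0 h. The sgQKI+QKI7-△KH count became 13 without replicate 1 at 0 h, the sgQKI+EV count 9 without replicate 2 at 4 h, and the sgNS+EV count 9 without replicate 2 at 0 h and 10 without replicate 2 at 4 h.

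Sm and U-snRNP protein mRNAs kept more on average than SF3 and PRPF mRNAs at 8 h in each of the 4 genotypes. The mean log2 signal of the 11 SNRP genes minus that of the 21 SF3 and PRPF genes was taken in each library, relative to the mean of its own genotype at 0 h, which a common scale factor leaves unchanged apart from the added constant. At 8 h this gap was 0.25 and 0.28 in sgQKI+QKI7-WT, 0.25 and 0.21 in sgQKI+QKI7-△KH, 0.28 and 0.23 in sgQKI+EV, and 0.21 and 0.21 in sgNS+EV. At 4 h it was 0.049 and 0.16 in sgQKI+QKI7-WT, 0.16 and 0.18 in sgQKI+QKI7-△KH, 0.17 and 0.18 in sgQKI+EV, and 0.050 and 0.076 in sgNS+EV. The 8 libraries at 8 h did not overlap those at 4 h, nor did those at 4 h overlap the 8 at 0 h, which spanned -0.020 to 0.020. No test is given for this score, since it is taken over chosen genes. Taken from the medians of the fitted changes, the gap at 8 h was 0.16 on the deposited scale, and 0.14 to 0.19 over the alternatives tried. That range belongs to the gap of the medians. The gap of the means was taken on the deposited scale alone, and quantile normalisation, which is not a common scale factor, could change it. At 4 h the medians and the means differ in sign for sgQKI+QKI7-△KH, where the gap of the medians was -0.016, and in the other genotypes it was 0.075 in sgQKI+QKI7-WT, 0.12 in sgQKI+EV and 0.075 in sgNS+EV.

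**Figure D4:**
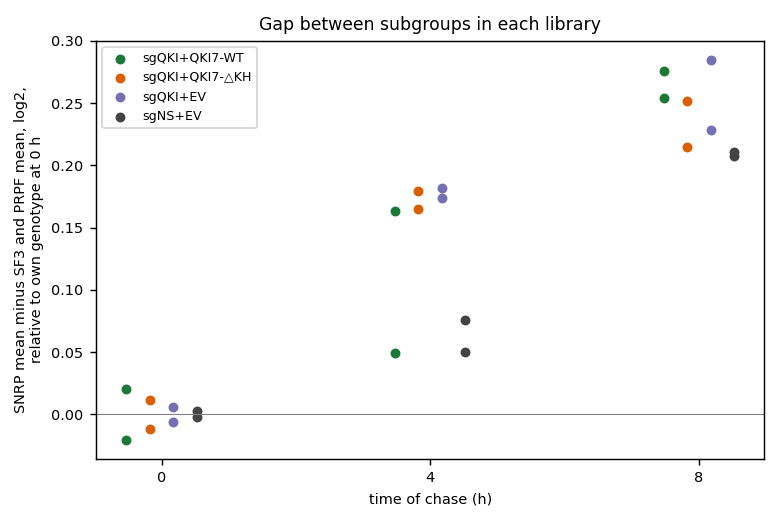
Mean log2 signal of 11 SNRP genes minus that of 21 SF3 and PRPF genes, relative to the same genotype at 0 h (y axis), against time of chase in h (x axis), with 1 point per library. On the deposited scale the 8 h libraries lie between 0.21 and 0.28, those at 4 h between 0.049 and 0.18, and those at 0 h between -0.020 and 0.020.

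Loss went with mRNA length. Across the 34 members, which share all libraries and so are not independent, the change over 8 h had a Spearman rho of -0.60 with coding length, -0.62 with transcript length and -0.49 with the number of exons. The same values over 11336 genes with a matched coding transcript were -0.30, -0.49 and -0.014. Members with a longer coding sequence, 1395 to 7008 bases, had a median change of -0.60, and those with a shorter one, 231 to 1275 bases, -0.44. Within subgroups the rho with coding length was -0.455 for the 11 SNRP genes, -0.683 for the 9 SF3 genes and -0.545 for the 12 PRPF genes. SNRP mRNAs are short, with a median coding length of 381 bases, against 1506 for SF3 and 2031 for PRPF. PRPF40B goes against the trend, with a coding length of 2679 bases. SNRPB, at 696 bases, goes against it in the other direction. Members with a higher mean signal also kept more, with a rho of 0.43, against 0.22 for all genes, and the part of signal and length in each other's relation was not tested.

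**Figure D5:**
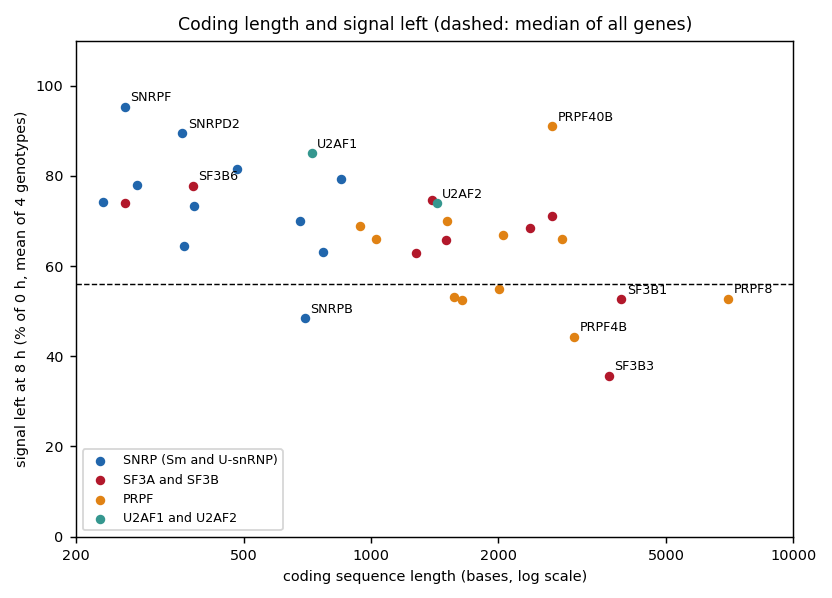
Signal left at 8 h as a percentage of 0 h, averaged over 4 genotypes on the spike-in scale (y axis), against coding sequence length in bases on a log scale (x axis), with 1 point for each of 33 members coloured by subgroup and the median of all genes dashed. Short Sm genes such as SNRPF (261 bases, 95.4%) lie high and SF3B3 (3654 bases, 35.7%) low, with PRPF40B (2679 bases, 91.0%) apart.

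The 8 members with a QKI motif in the 3′ UTR, 5 of which are printed above, spanned the range of change, from SNRPF at -0.069 to SF3B3 at -1.46. Their median was -0.65, against -0.51 for the 25 members with a 3′ UTR and no match. An ATTTA element, the core of AU-rich elements that recruit decay factors, was found in the 3′ UTR of 16 of 33 members, 48.5%, against 70.4% of all genes. The members' 3′ UTRs had a median length of 396 bases, against 1110.5 for all genes, and neither motif share was adjusted for it.

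Genotype differences before the chase were small among the members. By limma none passed in sgQKI+EV against sgNS+EV at 0 h, where 1.55% of all genes did. No member had an unadjusted p under 0.05 there, where 1763 of 12547 genes did. Member changes lay between -0.18 and 0.065. None passed in sgQKI+QKI7-WT against sgQKI+QKI7-△KH, where 3.75% of all genes did. There 20 members had an unadjusted p under 0.05, where 3246 of 12547 genes did. All 34 were on the lower side in sgQKI+QKI7-WT, between -0.25 and -0.072. So were 90.9% of all genes, with a median of all genes of -0.15. None passed in sgQKI+QKI7-WT against sgQKI+EV, where 0.0877% of all genes did. There 1 member, U2AF1 at 0.22, had an unadjusted p under 0.05, where 596 of 12547 genes did.

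In sgQKI+QKI7-△KH against sgQKI+EV 11 members were higher at 0 h and none lower, where 12.6% of all genes were higher and 0.12% lower. U2AF1 had a signal of 183 and 169 in sgQKI+QKI7-△KH, against 144 and 141 in sgQKI+EV. SNRPB2 had 124 and 117 in sgQKI+QKI7-△KH, against 98.9 and 97.2 in sgQKI+EV. SNRPD3 had 113.5 and 106.3 in sgQKI+QKI7-△KH, against 91.5 and 87.9 in sgQKI+EV. In all 3 genes the libraries of the 2 genotypes did not overlap. SF3B6 had 475 and 456 in sgQKI+QKI7-△KH, against 381 and 379 in sgQKI+EV. SF3B1 had 215 and 198 in sgQKI+QKI7-△KH, against 176 and 170.0 in sgQKI+EV. PRPF38A had 74.7 and 74.0 in sgQKI+QKI7-△KH, against 62.4 and 63.4 in sgQKI+EV. These 3 did not overlap either, nor did SNRPD2, at 893 and 867 in sgQKI+QKI7-△KH against 717 and 733 in sgQKI+EV. The 11 were SNRPB2, SNRPC, SNRPD2, SNRPD3 and SNRPF (0.24 to 0.29), SF3A3, SF3B1, SF3B4 and SF3B6 (0.22 to 0.29), PRPF38A (0.24) and U2AF1 (0.30), with adjusted p between 0.0215 and 0.0496. The median of all genes in this comparison was 0.19, and the members' median 0.22. No member passed with library totals or quantile normalisation, where PRPF38A, SF3A3 and SNRPF were at -0.012, -0.030 and -0.012 with library totals. Leaving out replicate 1 of sgQKI+QKI7-△KH or either replicate of sgQKI+EV left 0 calls, and leaving out replicate 2 of sgQKI+QKI7-△KH left 5.

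Loss over 8 h did not differ between genotypes for any member at the threshold. The difference between sgQKI+EV and sgNS+EV in the 0 to 8 h change passed for none by limma, where 0.677% of all genes passed. Its median was -0.14 over all genes, 79% of which were below 0, and -0.13 over the members. An unadjusted p under 0.05 was found for 2134 of 12547 genes and for 4 of the 34 members. These were PRPF8 at -0.35 (95% interval -0.58 to -0.11), SF3B3 at -0.33 (-0.55 to -0.11), SF3B1 at -0.30 (-0.50 to -0.090) and SF3A3 at -0.24 (-0.45 to -0.031), each with a larger fall in sgQKI+EV and adjusted p of 0.143 to 0.233. PRPF8 had 70.2 and 65.8 at 8 h against 151.9 and 150.8 at 0 h in sgQKI+EV, and 86.1 and 90.1 against 149.5 and 158.0 in sgNS+EV. Its 8 h libraries were lower in sgQKI+EV, and its 0 h libraries overlapped. In a fit on the compared groups alone 4 members passed, and the share of all genes in that fit is not given.

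The difference between sgQKI+QKI7-WT and sgQKI+QKI7-△KH in the 0 to 8 h change passed by limma for no member and no gene (0%). No member had an unadjusted p under 0.05, where 120 of 12547 genes did. Member values lay between -0.15 and 0.15, the highest for SNRPF at 0.15 (95% interval -0.068 to 0.37), so that differences of about this size are not excluded by the interval. Members with a QKI motif had a median of -0.011 and those without one 0.057. In sgQKI+EV minus sgNS+EV the medians were -0.084 and -0.14.

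For the 0 to 4 h change, 1 member passed in sgQKI+EV minus sgNS+EV, where 8.89% of all genes were lower and 1.8% higher. PRPF39, another homologue of a yeast U1 snRNP protein, had 23.7 and 25.1 at 4 h against 40.9 and 38.8 at 0 h in sgQKI+EV, and 40.5 and 36.1 against 40.8 and 38.4 in sgNS+EV. It was lower at 4 h in sgQKI+EV, while the sgNS+EV times overlapped, and the difference was -0.64 (SE 0.19, adjusted p = 0.0398). It did not pass with any of the 8 libraries of this comparison left out. With library totals 12 members passed as lower, and after quantile normalisation 2 as lower and 1 as higher. A fit on the compared groups alone gave 3 as lower and 4 as higher. The shares of all genes above belong to the spike-in scale, and those of these other fits are not given. At 8 h PRPF39 was at 20.1 and 23.0 in sgQKI+EV and 22.3 and 21.8 in sgNS+EV, which overlap.

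In sgQKI+QKI7-WT minus sgQKI+QKI7-△KH 8 members passed over 0 to 4 h, all with the higher 0 to 4 h change in sgQKI+QKI7-WT, where 16% of all genes were higher and 0.0638% lower. Among them were PRPF39 (0.60), PRPF4B (0.50), PRPF38A (0.41), SNRPG (0.49), SNRPD3 (0.35), SF3B1 (0.37) and SF3B2 (0.36). At 4 h SNRPG stood at 117% of its 0 h mean in sgQKI+QKI7-WT and 82.0% in sgQKI+QKI7-△KH, and SNRPD3, SF3B2 and PRPF38A were likewise above their 0 h means in sgQKI+QKI7-WT, at 107%, 116% and 106%, while PRPF39, PRPF4B and SF3B1 were below theirs in both genotypes. PRPF39 was at 41.7 and 27.2 at 4 h against 42.9 and 34.7 at 0 h in sgQKI+QKI7-WT, and at 27.3 and 25.3 against 47.1 and 44.9 in sgQKI+QKI7-△KH. PRPF4B was at 27.2 and 19.9 at 4 h against 32.2 and 27.9 at 0 h in sgQKI+QKI7-WT, and at 17.9 and 17.5 against 33.1 and 32.3 in sgQKI+QKI7-△KH. SNRPG, of the Sm ring, was at 195 and 144.5 at 4 h against 144 and 147 at 0 h in sgQKI+QKI7-WT, and at 142 and 140.5 against 172 and 172.5 in sgQKI+QKI7-△KH. In all 3 genes replicate 1 of sgQKI+QKI7-WT at 4 h was far above replicate 2, and for PRPF39 replicate 2 lay within the sgQKI+QKI7-△KH range at 4 h. SF3B1 was at 156 and 149 at 4 h against 171 and 184 at 0 h in sgQKI+QKI7-WT, and at 136 and 138 against 215 and 198 in sgQKI+QKI7-△KH, with replicates closer together. The members' median was 0.27 and that of all genes 0.24. No member passed with library totals, quantile normalisation or the compared groups alone. Without replicate 2 of sgQKI+QKI7-WT at 4 h 18 passed, without its replicate 1 at 0 h 4, and without any of the 6 remaining libraries 0.

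Measured genes of other spliceosome lists also fell on the spike-in scale, over 8 h in the mean of 4 genotypes, where 95.7% of all genes fell. All 26 measured U snRNP proteins outside the rule were lower, with a median of -0.62, as were all 10 LSm proteins (-0.47), 16 genes of the SMN complex and Sm assembly (-0.59), 24 of the Prp19 complex and the catalytic stage (-0.65), and 5 DEAH helicases and their cofactors (-1.26). The smallest changes were those of PPIH, a cyclophilin of the tri-snRNP, at -0.15 and ZMAT5, a protein of the minor spliceosome, at -0.17. The largest were those of CCDC12 at -3.93 and ZNF830 at -2.89, which had 5.57% and 10.7% of their signal left. SNRPF thus kept more than any gene of these lists. SF3B3 (-1.46) fell less than CCDC12, ZNF830, GPATCH1 (-1.98), GEMIN4 (-1.59), DDX20 (-1.53), TGS1 (-1.52), TFIP11 (-1.48) and GEMIN6 (-1.47). The share of the members in the endogenous total lay between 0.44% and 0.483% at 8 h and between 0.404% and 0.468% at 0 h.

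Several members share sequence or position with other genes, and the counting step that assigned such reads is known only by its tool names. Named pseudogenes exist for 9 members, among them SNRPG with 20, SNRPC with 18, SNRPE with 9 and SNRPF with 4. An exon of a gene on the other strand overlaps 14 members and one on the same strand 3. The library kit marks strand, but whether the counting used it is not given in the sources used here, so signals of these members may include reads of their partners.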

How the data were processed

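One table of 12585 rows and 24 columns was used. Its values are the signal the authors deposited, normalised to ERCC spike-in RNAs as judged from the values. Per the submitters' processing notes, STAR, RSEM and GRCh38 were used, with no version. The unit before the spike-in step, read counts, and how the spike-in was added are not given in the sources used here, so whether a level is per cell or per amount of RNA is unknown.

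Groups came from the sample titles. Values plus 1 were log2-transformed and fitted with limma 3.58.1 (R 4.3.3, mean-variance trend) as 12 group means over all 24 libraries, with 12 residual and 9 prior degrees of freedom. The filter, at least 1 in at least 2 libraries, removed 0 genes. Tests were two-sided, with Benjamini-Hochberg adjustment over 12547 genes and a threshold of 0.05. The fit was tested on simulated data. Fold changes are of values plus 1, which understates those of low genes. The percentage left is the ratio of group means without the added constant.

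The members and lists were chosen with earlier results of these data known. Named genes are all members that passed where 6 or fewer did, otherwise the 3 highest and 3 lowest per subgroup, with some others added after their values were seen. The alternatives were library totals, quantile normalisation, a pseudocount of 0.1, no filter, a replicate block, the compared groups alone, and leaving out each library in turn. 1 alternative and 4 comparisons were added after the data were seen. Lengths and 3′ UTR sequences come from GENCODE 29, matched by symbol for 90.4% of genes and all 34 members. The values of 1 member are not reported here, though counts and medians over the members include it.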

Additional observations from a re-analysis of the deposited data

Results flagged for a closer look

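Differences between genotypes in the 0 to 4 h change, tested as interactions, were found for the members given here. In sgQKI+EV minus sgNS+EV 8.89% of all genes were lower and 1.8% higher, with a median of -0.076. In sgQKI+QKI7-WT minus sgQKI+QKI7-△KH 16% of all genes were higher and 0.0638% lower, with a median of 0.24. PRPF39 had a log2 difference of -0.6371 (SE 0.186, limma adjusted p = 0.0398) in sgQKI+EV minus sgNS+EV, and of 0.5954 (SE 0.186, adjusted p = 0.0392) in sgQKI+QKI7-WT minus sgQKI+QKI7-△KH. Between sgQKI+QKI7-WT and sgQKI+QKI7-△KH, PRPF4B had 0.4987, SNRPG 0.4913, PRPF38A 0.4143, SF3B1 0.3679, SF3B2 0.3572 and SNRPD3 0.3539, with adjusted p between 0.0288 and 0.0451. The 2 sgQKI+QKI7-WT libraries at 4 h, which enter each of these values except the first, are the replicate pair with the lowest correlation, and their part in the result was not tested beyond leaving each out. PRPF39 did not pass in sgQKI+EV minus sgNS+EV with any of the 8 libraries of that comparison left out. No member passed in sgQKI+QKI7-WT minus sgQKI+QKI7-△KH with library totals, quantile normalisation or the compared groups alone. The matching differences in the 0 to 8 h change did not pass for any member.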

How the results depend on the processing

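Read depth, the spike-in step and the 2 libraries per group limit these results. The direction of most changes over time rests on the spike-in scale. Shares of all genes in the other scalings are not given, so the counts below do not set the members apart from other genes. Scaled to library totals, the members lower over 8 h numbered 11 in the mean of 4 genotypes, 9 in sgQKI+QKI7-WT, 8 in sgQKI+QKI7-△KH, 8 in sgQKI+EV and 8 in sgNS+EV. Those lower over 4 h numbered 8 in the mean, 6 in sgQKI+QKI7-△KH, 7 in sgQKI+EV and 3 in sgNS+EV, and those lower from 4 to 8 h 17. In that scaling 0 passed in sgQKI+QKI7-△KH against sgQKI+EV, 2 in sgQKI+EV against sgNS+EV at 0 h (both higher), 12 in the 0 to 4 h difference sgQKI+EV minus sgNS+EV and 0 in that of sgQKI+QKI7-WT minus sgQKI+QKI7-△KH. After quantile normalisation those lower over 8 h numbered 7 in the mean, 6 in sgQKI+QKI7-WT, 5 in sgQKI+QKI7-△KH, 4 in sgQKI+EV and 6 in sgNS+EV. Over 4 h they numbered 5, 2, 4, 4 and 3 in the same order, and from 4 to 8 h 8. The larger later fall passed for 13, the 0 h difference sgQKI+QKI7-△KH against sgQKI+EV for 0, and the 0 to 4 h differences for 2 in sgQKI+EV minus sgNS+EV and 0 in sgQKI+QKI7-WT minus sgQKI+QKI7-△KH.

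The 8 h change was positive in both scalings for 18 members. Among them were SNRPF (0.50 and 0.48 with library totals and quantile normalisation), SNRPD2 (0.41 and 0.23), PRPF40B (0.42 and 0.76), U2AF1 (0.33 and 0.33), SF3B6 (0.21 and 0.15), SF3A2 (0.14 and 0.26), U2AF2 (0.13 and 0.12) and PRPF19 (0.053 and 0.042). With library totals the 0 h difference sgQKI+QKI7-△KH against sgQKI+EV became -0.012 for PRPF38A, -0.030 for SF3A3 and -0.012 for SNRPF. The cause was not tested.

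The difference of subgroup medians, SNRP minus SF3 and PRPF, moved under quantile normalisation. It became 0.17 over 8 h in sgQKI+QKI7-WT and 0.16 in sgQKI+EV, and 0.038, 0.020 and 0.052 over 4 h in sgQKI+QKI7-WT, sgQKI+QKI7-△KH and sgQKI+EV. It became 0.059 from 4 to 8 h, 0.065 in sgQKI+EV against sgNS+EV at 0 h, -0.11 in the 0 to 4 h difference of those genotypes and 0.0077 in the 0 to 8 h difference sgQKI+QKI7-WT minus sgQKI+QKI7-△KH. Without the 2 sgQKI+QKI7-WT libraries at 4 h it was 0.069 over 4 h in the mean, and the larger later fall passed for 10.

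Fitted on the compared groups alone, 1 member was lower over 4 h in sgQKI+QKI7-WT, 26 passed in sgQKI+QKI7-△KH against sgQKI+EV, 1 in sgQKI+EV against sgNS+EV at 0 h, and 4 in their 0 to 8 h difference. In the 0 to 4 h differences 3 passed as lower and 4 as higher in sgQKI+EV minus sgNS+EV, and 0 in sgQKI+QKI7-WT minus sgQKI+QKI7-△KH. Shares of all genes in these fits are not given, so the counts do not set the members apart from other genes. In the main fit 12.6% of all genes were higher in sgQKI+QKI7-△KH against sgQKI+EV at 0 h, and their median was 0.19. No label says that replicate numbers pair the samples. Over 66 pairs of groups the correlation of replicate differences ran from -0.424 to 0.483. Its median was -0.0172, and 21 pairs were above 0.1, so pairing among some groups is not settled. With a replicate block, 2 members passed in the 0 to 4 h difference sgQKI+EV minus sgNS+EV, and no other count moved past 1.5 times. A pseudocount of 0.1 and no filter moved no count that far.

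Leaving out each library in turn, members lower over 4 h numbered 2 to 7 in sgQKI+QKI7-WT, 13 to 19 in sgQKI+QKI7-△KH, 9 to 19 in sgQKI+EV and 9 to 18 in sgNS+EV, those higher in sgQKI+QKI7-△KH against sgQKI+EV 0 to 5, and those in the 0 to 4 h differences 0 to 0 in sgQKI+EV minus sgNS+EV and 0 to 18 in sgQKI+QKI7-WT minus sgQKI+QKI7-△KH. The difference of subgroup medians over 8 h ran from 0.14 to 0.19 in the mean, 0.18 to 0.29 in sgQKI+QKI7-WT, 0.090 to 0.13 in sgQKI+QKI7-△KH, 0.20 to 0.27 in sgQKI+EV and 0.076 to 0.19 in sgNS+EV. Over 4 h it ran from 0.033 to 0.074 in the mean, 0.029 to 0.060 in sgQKI+QKI7-WT, 0.024 to 0.067 in sgQKI+QKI7-△KH, where it was -0.016 with every library in, 0.081 to 0.16 in sgQKI+EV and 0.054 to 0.12 in sgNS+EV. From 4 to 8 h it ran from 0.083 to 0.12, and in sgQKI+QKI7-WT against sgQKI+EV at 0 h from -0.0097 to 0.039. For the 0 to 8 h differences it ran from -0.013 to 0.11 in sgQKI+QKI7-WT minus sgQKI+QKI7-△KH and from -0.0016 to 0.088 in sgQKI+EV minus sgNS+EV, and for the 0 to 4 h difference of the last pair from 0.0098 to 0.11.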
